A study of Bos taurus with 4 samples.

Results

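CPT2, GCDH, HSD17B4, PEX16 and DGAT1 are the fatty acid and acyl-CoA metabolism genes followed here through bovine blood neutrophils around calving. They were picked by function from the 444 genes that the platform annotation names, and they were also chosen by their log2 ratios on these same arrays, so their values are a description and carry no test. Each has 1 element, a set of 3 consecutive spots, so the 5 genes stand for 5 of 1296 elements. Neutrophil RNA of parturient cows was pooled at day -7, day 0, day 0.25 and day 1 relative to calving, with 4 cows behind each sample per the labels, and no other treatment or genotype is given. RNA of 2 pools was hybridised to each of 4 two-channel cDNA arrays, which are named here by channel 1 over channel 2. The first array is day 0.25 over day -7, the second is day 1 over day 0, the third is day -7 over day 1, and the fourth is day 0 over day 0.25. Each pool lies on 2 arrays, once in each channel, so the arrays form a closed loop. There is 1 pool per day, and no spread between cows or repeat pools enters any error below.

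Long-chain fatty acids reach the mitochondrial matrix as acyl-carnitines, are turned back into acyl-CoA there and are shortened by beta-oxidation. Very long and branched chains are shortened first in peroxisomes. Acyl-CoA that is not burned can be esterified into triglycerides and kept in lipid droplets. Dairy cows mobilise body fat around calving, which raises free fatty acids in their blood, and neutrophils take most of their energy from glycolysis.

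The cell type in the labels could not be checked against the marker genes listed for it. None of 25 neutrophil markers was among the named elements, and of 63 markers of neutrophils and other blood cells only CD79B, of the B cell receptor, was, at -0.010 ± 0.022 (SE) for day 0.25 against day -7. In pooled RNA, fewer cells of a type and less RNA per cell cannot be told apart. The deposited values are log10 ratios, converted here to log2. The sources do not say which channel was divided by which. Each value is read as channel 1 over channel 2, and a negative difference means a lower later pool only if that holds on every array. The deposited ratios are narrow, with an SD over elements of 0.046, 0.018, 0.032 and 0.015 (log2) on the 4 arrays in the order above, and they are not taken here as transcript fold changes.

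CPT2 encodes carnitine palmitoyltransferase 2 of the inner mitochondrial membrane, which turns long-chain acyl-carnitines back into acyl-CoA for beta-oxidation. On day 0.25 over day -7 its 3 spots had log2 ratios of -0.061, 0.134 and -0.801, a spread that covers both signs. The third is a deposited ratio of 0.574, the lowest of the 3868 spot values of that array, while the second was the 74th highest. The element mean, after centring, was -0.246, the lowest of 1295 elements, and the SD between the spots was 0.493, the largest of all. On that array the mean of CPT2 was therefore smaller than the SD of its own spots.

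The other 3 arrays gave CPT2 tighter and smaller ratios. On day 0 over day 0.25 the spots stood at 0.026, 0.030 and 0.043, all positive, and their centred mean of 0.033 was the 33rd highest of the elements. On day 1 over day 0 they were 0.0078, 0.0091 and 0.015, with a centred mean of 0.010. On day -7 over day 1 they were 0.017, -0.00014 and 0.084, and the centred mean was 0.036. The third spot held the highest of the 3 values on each of these 3 arrays and the lowest on day 0.25 over day -7.

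**Figure D1:**
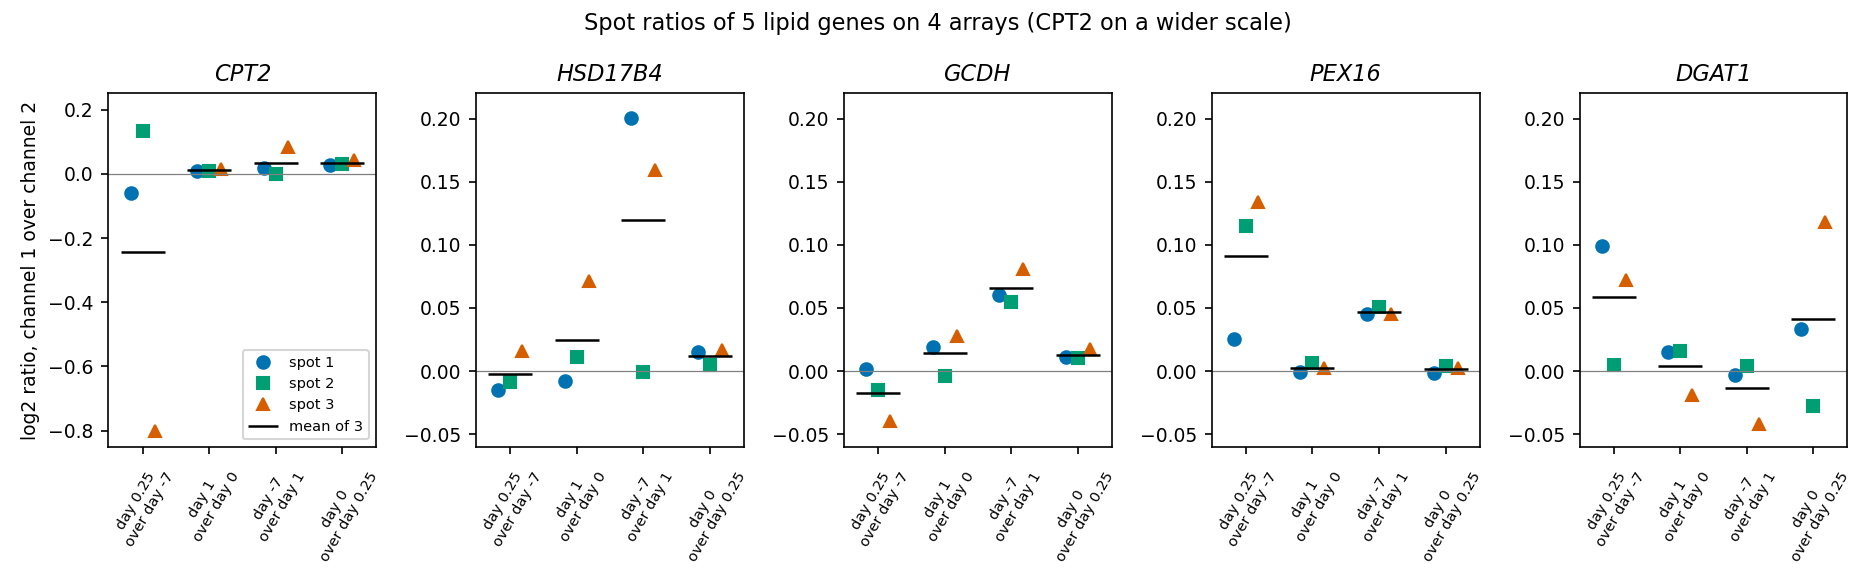
Log2 ratio (channel 1 over channel 2, not centred) of each of the 3 spots of CPT2, HSD17B4, GCDH, PEX16 and DGAT1 on the 4 arrays, with the mean of the 3 as a line; the CPT2 panel has a wider scale. The third spot of CPT2 at -0.801 lies far below its other 2 spots, and on day -7 over day 1 the second spot of HSD17B4 at -0.00072 lies below the 0.201 and 0.159 of the others.

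Fitted over the loop, the CPT2 difference was -0.20 ± 0.030 (SE) for day 0.25 against day -7, -0.13 ± 0.035 for day 0 against day -7 and -0.078 ± 0.030 for day 1 against day -7. These SEs come from how well the array means of each element close the loop, moderated over elements, and do not see the spread between spots. In limma with Benjamini-Hochberg adjustment over all 1295 elements, the first difference had an adjusted p of 0.0101 and the test of any difference among pools one of 0.0429, and these calls are part of how CPT2 came to be chosen. Of all elements 2.01% passed (adjusted p below 0.05) for day 0.25 against day -7 and 0.541% for any difference. From the other 3 arrays alone, the day 0.25 difference was -0.079, against -0.246 on the direct array.

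The spots can also be fitted singly, if a spot number marks the same printed position on every array, which is assumed here. Fitted in this way, CPT2 gave 3 different answers for day 0.25 against day -7: -0.061 for the first spot, 0.088 for the second and -0.64 for the third. Summed around the loop, the 4 log ratios, which add up to 0 when pools alone differ, came to -0.012 for the first spot, 0.17 for the second and -0.66 for the third. The last is the largest of 3868 spots in size, against an SD of 0.079 over all of them. With the third spot left out of every element, the CPT2 difference was 0.013 (adjusted p = 0.955), and with the mean of the 2 nearest spots it was 0.012 (adjusted p = 0.972). It was -0.28 without the first spot and -0.35 without the second.

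**Figure D2:**
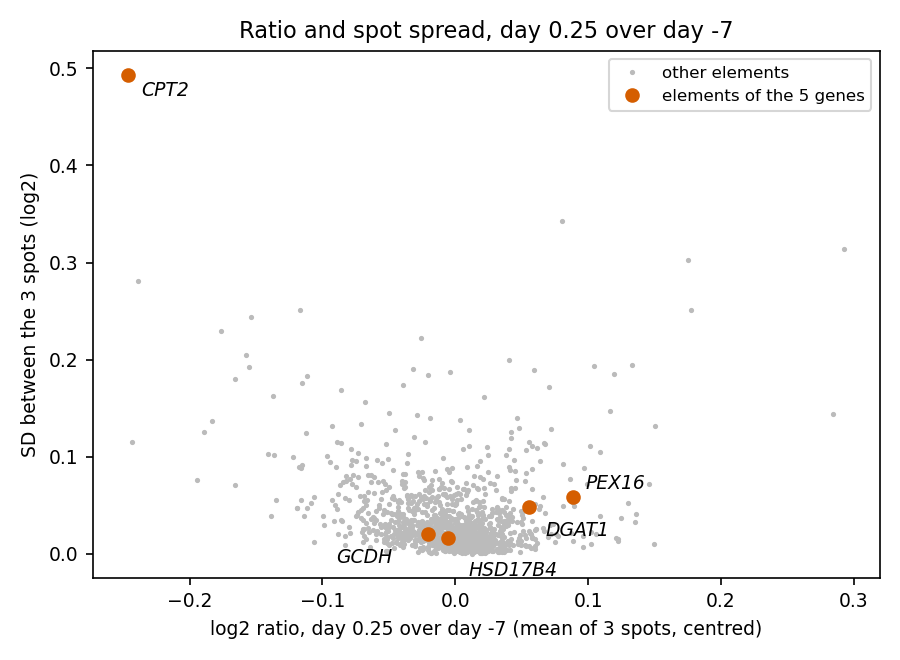
Log2 ratio of elements on day 0.25 over day -7 (mean of their spots, centred, horizontal axis) against the SD between their spots (vertical axis), with the elements of the 5 genes in orange. Elements with a single spot value on that array have no SD and are not shown. CPT2 is at the far upper left, with the lowest ratio (-0.246) and the largest spot SD (0.493), while the other 4 genes have SDs of 0.016 to 0.058.

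GCDH encodes glutaryl-CoA dehydrogenase, a mitochondrial acyl-CoA dehydrogenase in the breakdown of lysine, hydroxylysine and tryptophan. On day -7 over day 1, where its ratio was largest, the spots were close together at 0.060, 0.055 and 0.081. The centred mean there was 0.068 with a spot SD of 0.014, the 30th highest of the elements. On day 0.25 over day -7 its spots were 0.0016, -0.015 and -0.039. They were 0.019, -0.0038 and 0.028 on day 1 over day 0. Day 0 over day 0.25 gave 0.011, 0.011 and 0.017. The spots of GCDH were thus all positive on 2 arrays and had mixed signs on the other two. On day 0 over day 0.25 the centred mean of 0.013 was smaller than the SD over elements of that array, 0.015.

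The fitted differences of GCDH against day -7 were all negative and close together, at -0.045 ± 0.028 (SE) for day 0, -0.039 ± 0.024 for day 0.25 and -0.049 ± 0.024 for day 1, with adjusted p from 0.615 to 0.993. Each of its 3 spots, fitted alone, gave negative values for all 3 days, from -0.024 to -0.068. The day 1 difference came from the direct array, where it was -0.068, while the other 3 arrays gave 0.0059. For day 0.25 both routes were negative, with -0.021 on the direct array and -0.094 from the other three. The ratio of day -7 over day 1 enters all 3 fitted differences and every spot fit. Without that array the differences were -0.0081 for day 0, -0.021 for day 0.25 and 0.0059 for day 1.

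HSD17B4 encodes the D-bifunctional protein, which carries the hydratase and dehydrogenase steps of peroxisomal beta-oxidation. On day -7 over day 1 its spots were 0.201, -0.00072 and 0.159. The centred mean of 0.122 was the 4th highest of the elements, and the spot SD of 0.106 was the 15th largest. On day 1 over day 0 the spots were -0.0082, 0.011 and 0.072, with the third apart from the others. They were -0.015, -0.0090 and 0.016 on day 0.25 over day -7. Day 0 over day 0.25 gave 0.015, 0.0046 and 0.017. The second spot stayed within 0.011 of 0 on every array, unlike spots 1 and 3.

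The fitted differences of HSD17B4 were -0.084 ± 0.029 (SE) for day 1 against day -7, -0.070 ± 0.034 for day 0 and -0.044 ± 0.029 for day 0.25, with adjusted p of 0.477, 0.860 and 0.649. The value for day 1 was the 5th lowest of 1295. On the direct array it was -0.122 and from the other 3 arrays 0.030, so its sign depended on that array. By spot it was -0.16 for the first, -0.00042 for the second and -0.096 for the third. With the mean of the 2 nearest spots, a setting that drops the second spot of HSD17B4 on that array, it was -0.14 and passed (adjusted p = 0.0272). Under that setting 13 of 1295 elements passed for day 1, against 4 with the mean of all 3 spots. HSD17B4 was chosen with its ratios known, so nothing is read from this call.

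PEX16 encodes a peroxisomal membrane protein needed early in peroxisome assembly. On day -7 over day 1 its spots were nearly equal, at 0.045, 0.051 and 0.045, with a spot SD of 0.0033 and a centred mean of 0.049. They were 0.025, 0.115 and 0.134 on day 0.25 over day -7, all positive, and the centred mean of 0.088 was the 32nd highest of the elements. They were -0.00072, 0.0065 and 0.0023 on day 1 over day 0. Day 0 over day 0.25 gave -0.0017, 0.0037 and 0.0023. PEX16 had a positive centred mean on all 4 arrays, which no set of pool levels can give around a closed loop. Its loop sum of 0.14 was the 42nd largest in size.

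The 2 arrays with clear PEX16 ratios place day -7 in opposite channels, and the fit spread the loop sum equally over all 4 arrays. The fitted differences against day -7 were 0.019 ± 0.033 (SE) for day 0, 0.053 ± 0.028 for day 0.25 and -0.014 ± 0.028 for day 1, with adjusted p of 0.993, 0.524 and 0.9996. For day 0.25 the direct array gave 0.088 and the other three -0.053. For day 1 the direct array gave -0.049 and the other three 0.092. Both differences changed sign between the routes. For day 1 against day 0.25 the fitted value was -0.067 ± 0.033, the 14th lowest of 1295, with an adjusted p of 0.9997 in limma and no direct array.

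DGAT1 encodes diacylglycerol O-acyltransferase 1 of the endoplasmic reticulum, which joins a fatty acyl-CoA to diacylglycerol in the last step of triglyceride synthesis. On day 0 over day 0.25 its spots were 0.033, -0.028 and 0.118, the last of which is the 3rd highest spot value of that array. The centred mean was 0.041, the 12th highest of the elements, and the spot SD of 0.073 was the 4th largest. The spots of day 0.25 over day -7 were 0.099, 0.0052 and 0.072, with a centred mean of 0.056. They were 0.015, 0.016 and -0.019 on day 1 over day 0. Day -7 over day 1 gave -0.0030, 0.0043 and -0.042. Its spots had mixed signs on 3 of the 4 arrays.

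DGAT1 was the only one of the 5 genes with positive fitted differences at all 3 later days, at 0.052 ± 0.028 (SE) for day 0, 0.033 ± 0.025 for day 0.25 and 0.034 ± 0.025 for day 1 against day -7, with adjusted p of 0.952, 0.686 and 0.9996. The direct array gave 0.056 for day 0.25 and the other three gave -0.033. For day 1 both routes were positive, with 0.011 on the direct array and 0.10 from the others. By spot the day 0 value was 0.057, -0.024 and 0.12, so the second spot differed in sign from the others.

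**Figure D3:**
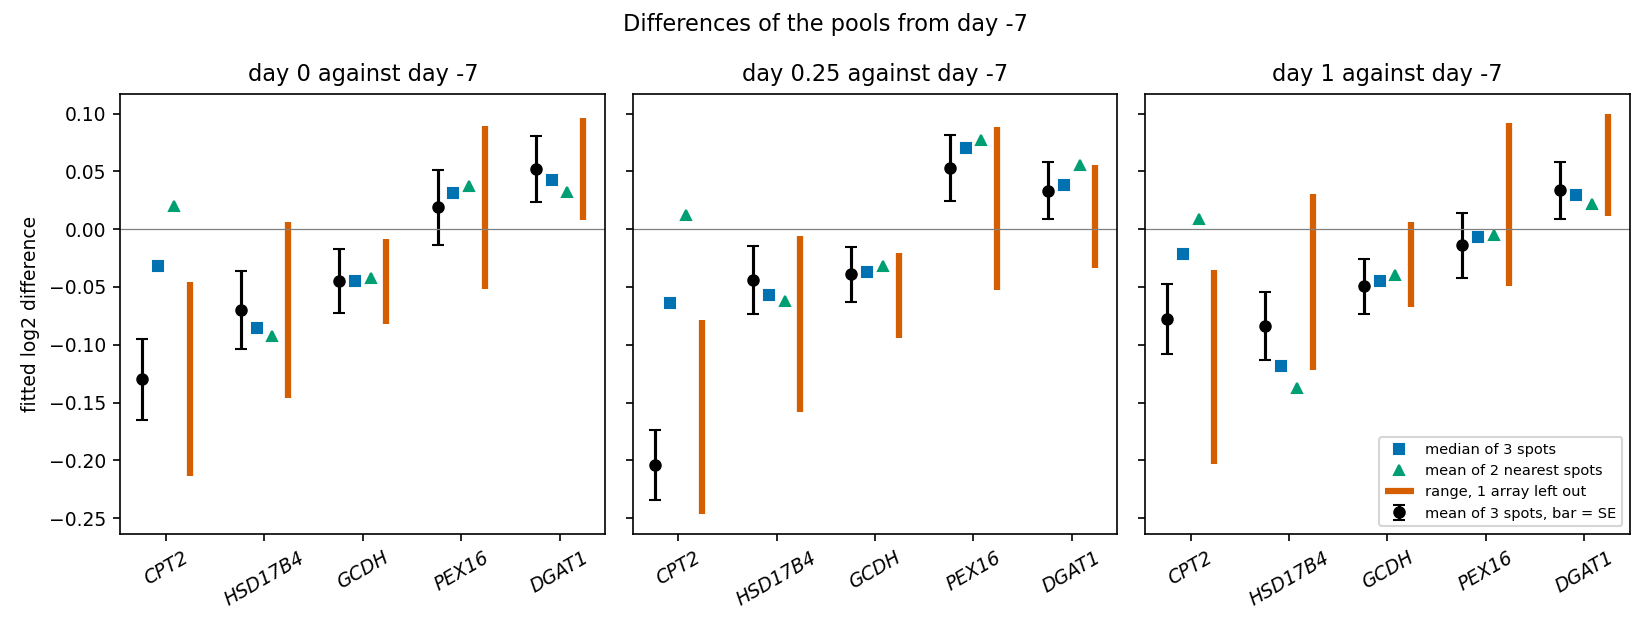
Fitted log2 difference of each pool from day -7 for the 5 genes, as the loop fit with its SE (black), with the median of the 3 spots (blue), with the mean of the 2 nearest spots (green), and as the range over fits that leave out 1 array, which give only 2 distinct values (orange). CPT2 moves from -0.20 to 0.012 for day 0.25 when the outlying spot is dropped, and the orange range of PEX16 crosses 0 for every day.

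Against day -7 the 5 genes did not share a sign. For day 0 and for day 0.25, CPT2, HSD17B4 and GCDH were negative and PEX16 and DGAT1 positive, and for day 1 only DGAT1 was positive. The median over the 5 was -0.045 for day 0, -0.039 for day 0.25 and -0.049 for day 1, beside -0.0026, -0.00064 and -0.0012 over all 1295 elements. Past the threshold was 1 of the 5 for day 0.25 (CPT2), where 2.01% of all elements passed. It was 0 for day 0 and for day 1, where 0.309% of all elements passed in each. All 3 comparisons use the same day -7 pool, and the genes were selected with these values known, so nothing is read from these counts and medians.

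On the arrays themselves, all 5 genes had positive centred ratios on day 1 over day 0 and likewise for day 0 over day 0.25. On day -7 over day 1, 4 of the 5 were positive, all but DGAT1. PEX16 and DGAT1 alone were positive on day 0.25 over day -7. The centring divides all elements evenly around 0 on each array. On day -7 over day 1 the 10 elements beside each of the 4 positive genes in the list had medians of 0.012 to 0.017. The highest single neighbour was at 0.060 for CPT2, above the 0.036 of CPT2 itself. For HSD17B4, GCDH and PEX16 it was below the gene. The genes were chosen with their ratios known, so nothing is read from this.

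The genes were also unlike in the size of their loop sums. CPT2 had -0.17, HSD17B4 0.15, PEX16 0.14, DGAT1 0.089 and GCDH 0.074, against a median size of 0.038 over all elements. Those of CPT2, HSD17B4 and PEX16 were among the 42 largest in size. What kept these sums from 0 was not tested.

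Between the later pools the fit shifted the value of each direct array by an equal part of the loop sum. A sign that differs between the fit and the direct array therefore restates that sum. CPT2 kept its sign for day 0.25 and for day 1 against day 0. It was at -0.074 ± 0.030 (SE) for day 0.25 against day 0, the lowest of 1295, but with an adjusted p of 0.999 in limma. On the direct array it was at -0.033 there, with all 3 spots on the same side. For day 1 against day 0.25 it was at 0.13 ± 0.035, the 3rd highest, with an adjusted p of 0.961 and no direct array. For day 1 against day 0 it was at 0.052 ± 0.030, while the direct array gave 0.010. The third spot of day 0.25 over day -7 enters all 3 values through the fit. For day 1 against day 0 the other 4 genes were all negative in the fit, from -0.033 for PEX16 to -0.0044 for GCDH, and all positive on the direct array, from 0.0023 for PEX16 to 0.024 for HSD17B4. For day 0.25 against day 0, HSD17B4, GCDH and PEX16 were at 0.026, 0.0058 and 0.034 in the fit and at -0.012, -0.013 and -0.0011 on the direct array. DGAT1 was negative both ways there, at -0.019 and -0.041.

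The named genes with the most similar ratios were found by Euclidean distance over the 4 centred values of a gene. LUC7L3, a splicing factor, lay closest to CPT2 (distance 0.029, with a median of 0.25 to all named genes), and ADCY7, an adenylyl cyclase, came next (0.082). LUC7L3 also had 1 spot far from the others on day 0.25 over day -7, at -0.560 beside -0.068 and -0.079. ADCY7 had all 3 of its spots below 0 there, at -0.331, -0.067 and -0.142.

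For HSD17B4 the nearest were METTL5, an rRNA methyltransferase (0.040), and GCDH (0.057), which was the 2nd nearest of 442 other genes. GCDH itself lay closer to CD2BP2 (0.0062) and to the tartrate-resistant acid phosphatase ACP5 (0.0095), and HSD17B4 was only its 94th nearest. CASTOR1, an arginine sensor upstream of mTORC1 (0.013), and ANKRD10 (0.022) were nearest to PEX16. CASTOR1 reached its mean through spots of 0.045, -0.239 and 0.443 on day 0.25 over day -7, while those of ANKRD10 were 0.138, 0.115 and 0.029. DEGS1, a sphingolipid desaturase (0.027), and ABLIM1, an actin-binding LIM protein (0.028), were nearest to DGAT1. The spots of DEGS1 on day 0.25 over day -7 were -0.098, -0.043 and 0.272, so that 1 spot made its mean positive.

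Other genes of lipid and mitochondrial metabolism were few on these arrays. The 270 listed genes covered fatty acid oxidation, acyl-CoA of amino acids, peroxisomes, acyl-CoA activation, lipid synthesis and storage, their regulators, and mitochondrial carriers and respiration. Of these, 12 had a named element. None of the 43 other peroxisomal genes and none of the 21 listed for acyl-CoA of amino acids did. None of the 12 passed in limma for day 0, day 0.25 or day 1 against day -7 or for any difference. Of all elements 0.309%, 2.01%, 0.309% and 0.541% passed in that order, so nothing is read from the 0 of 12. An unadjusted p below 0.05 was seen in 1, 2, 0 and 1 of the 12 in the same order. It was seen in 78, 157, 73 and 93 of all 1295 elements. The median of the 12 was -0.0049, -0.0058 and -0.00092 for day 0, day 0.25 and day 1.

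CPT1A, the outer-membrane partner of CPT2 that forms acyl-carnitines, was at 0.013 ± 0.023 (SE) for day 0.25 against day -7, -0.0056 ± 0.026 for day 0 and -0.014 ± 0.023 for day 1. ACSL4, which activates long-chain and above all arachidonic acid to acyl-CoA, ranged from 0.0061 to 0.018 over the 3 days, and ACSS1, a mitochondrial acetyl-CoA synthetase, from 0.0060 to 0.014. SCD, the stearoyl-CoA desaturase, ranged from -0.0094 to 0.012. RXRA, the nuclear receptor that pairs with PPAR proteins, ranged from -0.0023 to 0.0044, and INSIG1, which holds back sterol regulatory factors, from 0.0029 to 0.0057. All 6 lay within 1 SE of 0 for every day.

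The mitochondrial carriers and enzymes reached further from 0. SLC25A25, an ATP-magnesium/phosphate carrier, was at -0.081 ± 0.026 (SE) for day 0, -0.078 ± 0.022 for day 0.25 and -0.046 ± 0.022 for day 1 against day -7, with adjusted p of 0.413, 0.0980 and 0.884. UCP2, a member of the uncoupling protein family, was at -0.065 ± 0.034, -0.079 ± 0.030 and -0.0047 ± 0.030 in the same order, with adjusted p of 0.904, 0.248 and 0.9996. The ratio of UCP2 on day 0.25 over day -7 was -0.119 with a spot SD of 0.048, and that of SLC25A25 was -0.073 with a spot SD of 0.079. VDAC3, a channel of the outer membrane, ranged from -0.030 to 0.015 over the 3 days. SUCLG2, a subunit of succinyl-CoA ligase, ranged from -0.033 to -0.024. NDUFAF3, which helps assemble complex I, ranged from -0.018 to 0.036, and the complex I subunit NDUFS7 from -0.029 to -0.017.

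**Figure D4:**
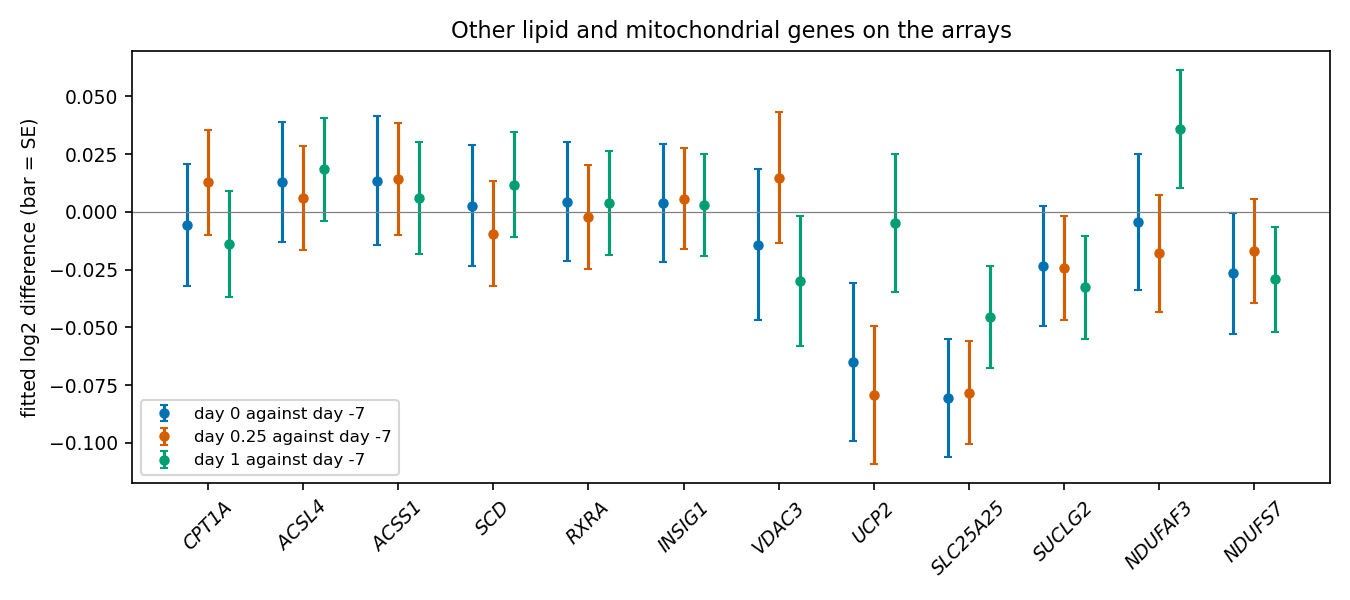
Fitted log2 difference from day -7 (vertical axis, bars are SE) of the 12 other lipid and mitochondrial genes with a named element, for day 0, day 0.25 and day 1. UCP2 and SLC25A25 reach -0.079 and -0.081, and the other 10 genes lie between -0.033 and 0.036.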

How the data were processed

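The authors deposited 1 log10 ratio per spot and array. The sources used here do not give their background correction, normalisation or filters. Raised to base 10, 99.8% to 100% of the values on an array fall on multiples of 0.0001 (tolerance 2% of that step), against 3.52% to 3.99% when read as log2. Ratios were multiplied by the log2 of 10, averaged over the 3 spots of an element and centred on each array's median element. Of 3888 spots, 20 have no value on day 0.25 over day -7, which left 1295 of 1296 elements. Names come from the platform annotation, updated by gene ID (485 elements) or synonym (1) in the ARS-UCD2.0 gene table. No sequence or coordinate was used.

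The loop was fitted with limma 3.58.1 in R 4.3.3 (day -7 as base, 1 residual degree of freedom per element, 10.9 more from moderation), called where the p adjusted by Benjamini and Hochberg over 1295 elements was below 0.05, and tested on simulated data. The p-values compare these pools beyond array error. Fits from 3 arrays have no residual degree of freedom and give values only. Intensities were not used, so nothing is known of signal over background, and the few arrays limit precision. The genes, lists and tests were chosen with earlier results of these data known. Named are the 5 genes, every other listed pathway gene with a named element, and for each of the 5 the 2 genes nearest over the 4 ratios. Alternatives were the summary of spots, centring, scaling, array weights, a running median over 27 elements, a filter on missing spots, each array left out and each array's sign turned. Leaving out each spot and scaling by the median absolute deviation (MAD) were added after the data were seen.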

Additional observations from a re-analysis of the deposited data

How the results depend on the processing

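The call of CPT2 depended on the processing. For day 0.25 against day -7, 1 of the 5 genes passed, beside 2.01% of all elements. Of the 5, 0 passed with the median of the spots, the mean of the 2 nearest spots, no centring or inverse-variance weights. The same held for the running median, MAD scaling and without spot 3. For any difference among pools 1 of the 5 passed, beside 0.541% of all elements. That 1 became 0 under the same 7 settings, without spot 2, and with only elements that have all 3 spots. CPT2 kept much of its size in some of these, at -0.201 without centring, -0.189 after the running median, -0.151 with weights and -0.142 with MAD scaling, and it was -0.0637 with the median of the spots. It stood at 0.0121 with the 2 nearest spots, 0.0129 without spot 3 and 0.165 with day 0.25 over day -7 turned in sign, and at -0.125 (adjusted p = 0.00269) with the arrays scaled to equal SD. For day 0 the count of 0 became 1 without spot 1 (CPT2, adjusted p = 0.0217), where 9 of 1294 elements passed, against 4 of 1295 in the main fit. For day 1 it became 1 with the 2 nearest spots (HSD17B4), where 13 of 1295 elements passed, against 4 in the main fit. Both settings raised the count over all elements, so nothing is read from these 2 calls. None of the 12 other pathway genes passed under any of the 11 settings with a test.

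Over all elements the counts were 7 for any difference, 26 for day 0.25, 4 for day 0 and 4 for day 1. In that order they were 0, 0, 0 and 0 without centring, after the running median and with MAD scaling, and 29, 55, 12 and 13 with the 2 nearest spots. Without spot 1 they were 25, 73, 9 and 8. Without spot 3 all 4 were 0. Without spot 2 they were 0 for any difference, 1 for day 0 and 0 for day 1. Inverse-variance weights gave 3 for any difference and 0 for day 0.25. Equal SD gave 7 for day 0.25, and elements with all 3 spots gave 2 for any difference. The cause was not tested.

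The 15 differences of the 5 genes from day -7 kept their sign in 117 of 120 values under the settings with a test other than leaving out a spot, in 42 of 45 with a spot left out, in 23 of 30 with an array left out (2 distinct values per difference, since 3 arrays form an open chain) and in 47 of 60 with an array's sign turned. The exceptions to the first 2 counts were all CPT2, with the 2 nearest spots and without spot 3. Some settings behind the first count barely moved the values, so the signs kept there say little. For day 0.25, CPT2 was at -0.2042 in the main fit, -0.2045 with only elements that have all 3 spots and -0.2014 without centring.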
